A study of Mus musculus with 4 samples.

Results

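The genes described here are 10 regulators of transcription named for their roles in the luminal lineage of the mouse mammary gland: *Elf5*, *Ehf*, *Elf3*, *Foxa1*, *Gata3*, *Tbx3*, *Tfap2c*, *Spdef*, *Xbp1* and *Cited1*. They were chosen by symbol, with earlier results of these data known, and all 10 were found among the 27998 genes of each count table. Single epithelial cells of FVB/NJ mice, without treatment, were profiled on the 10x Genomics Chromium platform, which counts unique molecules (UMIs) at the 3′ end of transcripts. Pubertal glands were taken at 5 weeks, and adult glands at 10 weeks in estrus or in diestrus, which are the phases of the ovarian cycle around ovulation and of high progesterone. Cells of more than 1 mouse were pooled in a library, with fewer mice in each adult library than in that of puberty. Each stage had 1 library, so differences between stages are given as values without a test.

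The ductal epithelium has an outer basal layer, made of contractile myoepithelial cells, and an inner luminal layer. Luminal progenitor (LP) cells largely lack hormone receptors and give rise to the secretory cells of pregnancy, whereas mature luminal (ML) cells hold most of the receptors for estrogen and progesterone. The ETS protein ELF5 drives the alveolar fate of progenitors, GATA3 maintains luminal identity, and FOXA1 is a pioneer factor that opens chromatin for the estrogen receptor.

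The first puberty table held 5428 barcodes, that of estrus held 2729 and that of diestrus held 2439, with medians of 4103, 3236 and 3974 UMIs per cell. A second puberty table shared 5387 barcodes with the first, the number of pubertal cells stated for both tables together, and was treated as the same library and left out of the main values. Other pairs of tables shared 13 to 24 barcodes. Cells were placed by signatures of 100 genes each for the basal, LP and ML lineages, from which the 10 regulators and all other regulators named here were kept out. The resulting classes are LP-like, ML-like and basal-like, shortened to LP, ML and basal, and luminal cells lying between LP and ML are called Lum Int. LP comprised 1771 pubertal, 470 estrus and 565 diestrus cells, and in the same order the other classes comprised 2186, 787 and 683 (ML), 1132, 1308 and 1050 (basal), and 227, 111 and 92 (Lum Int). The basal keratin *Krt14* reached 3751 to 7141 CPM (counts scaled to a common library total) in basal cells and 16.5 to 76.6 CPM in LP cells over the libraries, and the casein *Csn3* reached 2754 to 8524 CPM in LP cells and 12.9 to 325 CPM in basal cells. Summed immune markers were at most 2.11 CPM in the basal, LP, Lum Int and ML classes, whereas 14, 22 and 7 cells with non-epithelial markers were left out. Cells lying between the basal and luminal positions, 98, 30 and 42 in number, were also kept out of the classes, and Scrublet called 76.5%, 76.7% and 26.2% of them doublets. Of a fibroblast list of 5 genes, *Dcn* made up nearly all counts in the Lum Int and ML classes, where the list summed to 161 to 715 CPM. The collagens *Col1a1*, *Col1a2* and *Col3a1* and *Lum* had at most 1 count each there. The list summed to 250 to 292 CPM in basal cells and to at most 1.83 CPM in LP cells.

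*Elf5* (chr2:103411688-103450989, plus strand) and *Ehf* (chr2:103263433-103303278, minus strand) encode related ETS factors and lie 108409 bases apart in GRCm38, with 3 genes annotated between them. *Gata3* (chr2:9857078-9890034) and *Tfap2c* (chr2:172549593-172558622) lie on the same chromosome, *Elf3* on chr1:135253575-135258568, *Foxa1* on chr12:57540628-57546916, *Tbx3* on chr5:119670669-119684724, *Spdef* on chr17:27714352-27728955, *Xbp1* on chr11:5520659-5525893 and *Cited1* on chrX:102247381-102252181. *Elf3* overlaps Gm26642, *Gata3* overlaps Gm13256 and 4930412O13Rik, and *Tbx3* overlaps Tbx3os1, each on the other strand, and *Gata3* also overlaps 9230102O04Rik on its own strand. Use of strand in counting is not given in the sources used here, so the counts of these 3 regulators are uncertain to that extent. RefSeq promoters (GRCm38.p6, from 250 bases before a start to 50 bases after it) matched 7 of the 10 genes, with 10 starts in all. *Elf5* has 2 starts, 11970 bases apart. The 4 promoters below belong to the regulators that differed most between LP and ML, *Elf5* on the LP side and *Cited1* and *Foxa1* on the ML side, and are shown 5′ to 3′ on the strand of the gene with each GGAA, the core of ETS sites, or its reverse complement TTCC in capitals.
Elf5, chr2:103411848-103412147, plus strand: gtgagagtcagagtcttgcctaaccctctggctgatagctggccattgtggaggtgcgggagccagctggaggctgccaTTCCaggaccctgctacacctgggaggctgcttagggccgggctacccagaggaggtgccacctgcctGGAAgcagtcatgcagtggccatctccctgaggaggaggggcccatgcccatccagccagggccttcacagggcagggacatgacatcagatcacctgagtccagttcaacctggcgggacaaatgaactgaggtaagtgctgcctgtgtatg
Elf5, chr2:103423818-103424117, plus strand: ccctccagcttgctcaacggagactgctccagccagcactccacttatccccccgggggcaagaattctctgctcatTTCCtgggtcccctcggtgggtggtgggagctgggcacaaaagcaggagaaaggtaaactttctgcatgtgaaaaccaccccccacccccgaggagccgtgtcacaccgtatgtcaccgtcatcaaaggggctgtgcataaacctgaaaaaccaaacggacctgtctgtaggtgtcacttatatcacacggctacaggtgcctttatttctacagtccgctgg
Foxa1, chr12:57546062-57546361, minus strand: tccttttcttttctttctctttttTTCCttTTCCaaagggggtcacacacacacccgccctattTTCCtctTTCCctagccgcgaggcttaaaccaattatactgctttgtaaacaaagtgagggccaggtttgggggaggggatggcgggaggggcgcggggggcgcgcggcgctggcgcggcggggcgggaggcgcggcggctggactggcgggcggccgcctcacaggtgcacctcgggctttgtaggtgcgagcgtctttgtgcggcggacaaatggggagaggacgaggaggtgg
Cited1, chrX:102252132-102252431, minus strand: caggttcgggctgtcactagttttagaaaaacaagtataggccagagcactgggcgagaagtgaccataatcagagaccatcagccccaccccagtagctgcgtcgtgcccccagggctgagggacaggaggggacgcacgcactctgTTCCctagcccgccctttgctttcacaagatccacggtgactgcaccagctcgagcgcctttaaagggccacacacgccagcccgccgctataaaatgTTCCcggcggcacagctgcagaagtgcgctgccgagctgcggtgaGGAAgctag
These windows held 2, 1, 4 and 3 GGAA matches on either strand. The motif was present in 96% of 32851 promoters of this length, with a median of 3 matches. GATAA, the core of GATA sites, was present in 25.4% of promoters and, of the 4 shown, in the second *Elf5* window. The forkhead motif TGTTTNC was present in 20.5% of promoters and, of the 4, in that of *Foxa1*, where it lay on the other strand. GCCNNNGGC, bound by AP-2 factors, was present in 16.6% of promoters and in none of the 4. *Cited1* has 3 starts, of which 1 is shown. Its other windows held 5 and 1 GGAA matches, and the one at chrX:102250727-102251026 also held 1 GATAA and 1 GCCNNNGGC match. The *Gata3* promoter held 3 GCCNNNGGC matches. These matches describe letters in a window and were not related to the counts.

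LP and ML cells differed in 8 of the 10 regulators. *Elf5*, *Ehf*, *Tfap2c* and *Xbp1* were higher in LP, and *Cited1*, *Foxa1*, *Tbx3* and *Spdef* were higher in ML. UMIs were summed per class and library, and the 12 sums were fitted together with edgeR's quasi-likelihood test with library as a block, calling genes at a Benjamini-Hochberg adjusted p below 0.01. Of 11144 genes tested, 16.6% were called higher in LP and 14.6% higher in ML, 31.2% in all. The median log2 difference was 0.03 over the 10 regulators, the same as over all genes. With library as a block, these p-values measure how far class differences varied over libraries that differ in stage. The classes were set with other genes of the same cells. Without TMM scaling, 1414 genes were called higher in LP and 2193 in ML, against 1849 and 1627, and the median of all genes moved from 0.03 to -0.16.

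**Figure D1:**
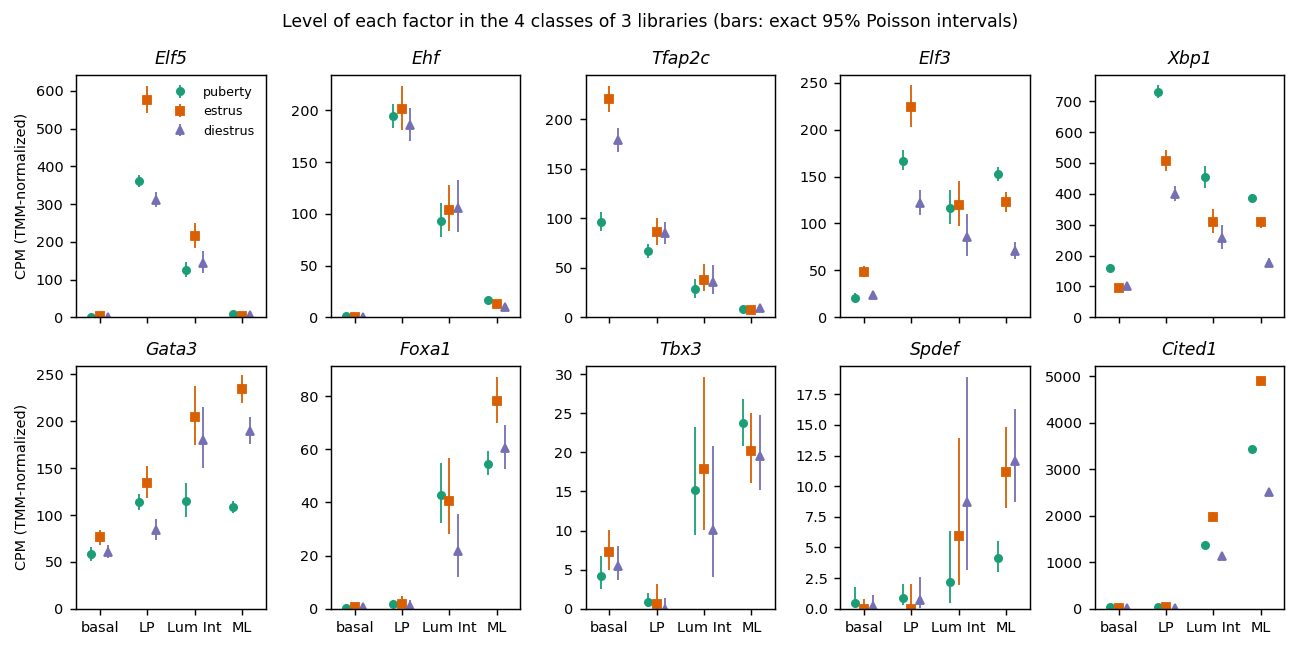
TMM-normalized CPM (vertical axes) of each regulator in basal, LP, Lum Int and ML cells of the puberty, estrus and diestrus libraries; bars are exact 95% Poisson intervals of the summed counts and cover counting error only. *Elf5* and *Ehf* were highest in LP, *Foxa1*, *Tbx3*, *Spdef* and *Cited1* in ML, and *Tfap2c* in basal cells.

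*Elf5* showed the largest difference on the LP side. Its level in LP was 360 CPM in puberty, 576 in estrus and 311 in diestrus, against 9.002, 4.04 and 7.18 CPM in ML and 1.49, 2.88 and 1.43 CPM in basal cells. The ranges of the 3 libraries did not overlap between any neighbouring classes. The log2 difference between LP and ML was 5.85 ± 0.26 (SE, edgeR adjusted p = 8.03e-11), and that between LP and basal was 7.70 ± 0.31 (edgeR adjusted p = 2.33e-11). ML exceeded basal cells by 1.85 ± 0.40 (edgeR adjusted p = 0.00101), a difference that rests on 27 basal counts over the libraries. It was lost with the borders at 1/4 and 3/4 (1.36, edgeR adjusted p = 0.0474), without puberty (1.27, 0.0281) and without diestrus (1.75, 0.0102), and in estrus alone it was 0.377. Cells with at least 2000 UMIs were thinned to 2000, to take depth out of the comparison, and shallower cells were left out of these shares. In puberty, estrus and diestrus this left out 173, 81 and 68 LP cells and 266, 359 and 194 basal cells. Of the LP cells kept, *Elf5* was found in 37.0% (puberty), 63.0% (estrus) and 44.5% (diestrus). In basal cells, which serve as the background, the shares were 0.231%, 0.527% and 0 of 856 cells, which allows a share of cells with a UMI of up to 0.3505% (3 counts). Median depths before thinning were 3691, 3183 and 4052 UMIs in LP and 2901, 2541 and 3393 in basal cells. Without thinning and over all LP cells, the shares were 53.9%, 76.4% and 65.3%.

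*Ehf*, an ETS factor of epithelia, had the same order of classes at a lower level. It measured 195, 202 and 186 CPM in LP and 16.5, 13.1 and 10.0 CPM in ML of puberty, estrus and diestrus. In basal cells it was at 1.49 CPM in puberty and 0.822 and 0.816 CPM in the adult libraries. LP thus varied little between stages on this scale, but without TMM scaling it measured 149, 199 and 191 CPM. LP exceeded ML by a log2 difference of 3.90 ± 0.16 (edgeR adjusted p = 4.31e-11) and basal cells by 7.53 ± 0.23 (edgeR adjusted p = 1.69e-12). Unlike *Elf5*, *Ehf* kept 10 to 17 CPM in ML, where the difference from basal cells was 3.63 ± 0.28 (edgeR adjusted p = 2.73e-08). Across the 12 class sums the log2 levels of *Elf5* and *Ehf* had a Pearson correlation of 0.966, which describes sums that share libraries and classes. The genes most like *Elf5* were *Atp6v1b1* (r = 0.99), *Muc1* and *Trim46*, and those most like *Ehf* were *Cd14* (r = 0.99), *Ctsh* and *Aldoc*, among 5014 genes with a mean of at least 20 CPM. All 6 belong to the LP signature that set the classes.

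*Tfap2c*, which encodes the AP-2γ factor, did not follow the luminal name of the group. Its level was highest in basal cells, at 96.2 CPM in puberty, 220 in estrus and 179 in diestrus. LP cells had 66.7, 86.1 and 85.0 CPM, and ML cells 8.81, 7.12 and 9.19 CPM. The order basal, LP, Lum Int, ML held in each library, and each step passed the test. Basal cells exceeded LP by 1.0 ± 0.17 on the log2 scale (edgeR adjusted p = 0.000191), and LP exceeded ML by 3.22 ± 0.21 (edgeR adjusted p = 5.74e-09). Its AP-2 paralogs differed in pattern. *Tfap2a* was higher in luminal cells, taken as the mean of LP and ML, than in basal cells, by 0.76 ± 0.17 (edgeR adjusted p = 0.00116). *Tfap2b* was lower in LP than in ML, by 0.91 ± 0.25 (edgeR adjusted p = 0.00735), with 49.3 to 89.4 CPM in LP and 92.8 to 165 CPM in ML. The genes most like *Tfap2c* were *Mmd* (r = 0.985), *Foxn3* and *Tmem47*.

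*Xbp1*, a factor of the unfolded protein response that serves secretory cells, had the highest mean LP level of the LP-high regulators. This mean over libraries was 546 CPM, against 416 CPM for *Elf5*, which was the higher one in estrus at 576 CPM. LP had 731 CPM in puberty, 508 in estrus and 400 in diestrus, ML 387, 308 and 176, and basal cells 161, 95.8 and 102. Each library had the same order of LP, ML and basal, and the LP and ML ranges did not overlap. The log2 difference was 0.99 ± 0.12 between LP and ML (edgeR adjusted p = 7.88e-06) and 1.19 ± 0.12 between ML and basal cells (edgeR adjusted p = 7.85e-07). Without the library block the difference between LP and ML was 0.98, with an edgeR adjusted p of 0.0366. *Tnk2* (r = 0.956), *Abhd5* and *Aftph* were most like *Xbp1*.

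*Elf3*, an ETS factor of differentiated epithelia, was luminal without a called difference between LP and ML. It measured 167, 224 and 122 CPM in LP, 153, 123 and 70.4 in ML and 20.9, 48.5 and 23.7 in basal cells of puberty, estrus and diestrus. LP exceeded ML in both adult libraries, whereas in puberty the order turned without TMM scaling, to 128 CPM in LP and 136 CPM in ML. The log2 difference of 0.62 ± 0.19 missed the threshold (edgeR adjusted p = 0.0172). Luminal cells exceeded basal cells by 2.15 ± 0.19 (edgeR adjusted p = 1.71e-07). Without the puberty library, where LP and ML lay closest, the LP excess was 0.89 with an edgeR adjusted p of 0.000402. It also passed without cycling cells (edgeR adjusted p = 0.00386) and without the filter on low counts (0.000482). *Anxa2* (r = 0.985), *Hes1* and *Ostf1* were the genes most like *Elf3*, and none of them was a signature gene.

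*Gata3* was detected in every class. Basal cells had 57.9, 76.1 and 61.0 CPM, LP 114, 134 and 83.9 CPM and ML 108, 234 and 190 CPM in puberty, estrus and diestrus. LP and ML overlapped. In puberty their counting intervals overlapped and the order turned without TMM scaling, to 87.0 CPM in LP and 96.7 CPM in ML. The log2 difference of LP from ML was -0.55 ± 0.18 (edgeR adjusted p = 0.0225), and without the puberty library it was -0.93, with an edgeR adjusted p of 0.000201. Without TMM scaling it was -0.76 (edgeR adjusted p = 0.00203), and it also passed without the filter on low counts (8.00e-05) and after dropping cells below 1000 genes or above 10% mitochondrial counts (0.00875). Luminal cells exceeded basal cells by 1.07 ± 0.17 (edgeR adjusted p = 5.31e-05). LP alone exceeded them by 0.79 ± 0.19 (edgeR adjusted p = 0.00247), a call lost without estrus (0.0448), without TMM scaling (0.0118) and without the library block (0.0712). After thinning to 2000 UMIs, *Gata3* was found in 16.3%, 37.9% and 32.5% of ML cells and in 10.5%, 15.2% and 10.9% of basal cells. The paralog *Gata2* was at 2.24 CPM or less in every class sum and was not tested. *Lman2l* (r = 0.955), *Akr1b10* and *Smyd3* were most like *Gata3*.

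*Cited1*, a transcriptional co-regulator that binds CBP and p300 and acts with the estrogen receptor, had the highest level and the largest difference. ML held 3432 CPM in puberty, 4911 in estrus and 2509 in diestrus, against 38.2, 33.5 and 12.5 CPM in LP and 28.3, 16.9 and 13.3 CPM in basal cells. The lowest ML library lay far above the highest LP library. ML exceeded LP by 6.95 ± 0.25 on the log2 scale (edgeR adjusted p = 1.08e-11). LP and basal cells could not be separated (log2 difference 0.53 ± 0.24, edgeR adjusted p = 0.0877). Thinned to 2000 UMIs, 87.4%, 98.9% and 89.6% of ML cells had a count, compared with 4.76%, 3.34% and 2.21% of LP cells and 4.27%, 3.37% and 2.34% of basal cells. The LP shares were thus at the level of the basal background. The paralog *Cited2* went the other way, higher in LP than in ML by 3.04 ± 0.24 (edgeR adjusted p = 5.54e-08), with 143, 374 and 220 CPM in LP and 31.9, 34.9 and 16.7 in ML. *Cited4* was higher in luminal than in basal cells by 3.99 ± 0.26 (edgeR adjusted p = 4.63e-09) and was not called between LP and ML (0.61 higher in ML, edgeR adjusted p = 0.0297). *Tspan1* (r = 0.995), *R3hdml* and *Prom1*, all ML signature genes, were most like *Cited1*.

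*Foxa1* was found in ML and Lum Int cells. Its ML level was 54.6 CPM in puberty, 78.1 in estrus and 60.3 in diestrus, with 1.72, 1.68 and 1.07 CPM in LP and 0.249, 0.617 and 0.612 CPM in basal cells. All 3 ML libraries lay above 50 CPM and all LP and basal libraries below 2 CPM. ML exceeded LP by a log2 difference of 5.27 ± 0.28 (edgeR adjusted p = 5.03e-10) and basal cells by 6.84 ± 0.30 (edgeR adjusted p = 4.83e-11), the latter resting on 7 basal counts. In summed counts, ML was 121 times higher than basal cells (95% interval of the ratio 58.4 to 301, counting error only). *Foxa1* was found in 8.10%, 15.7% and 10.2% of ML cells at 2000 UMIs, so most ML cells had no count at this depth. The paralog *Foxa3* was a basal gene, above luminal cells by 4.22 ± 0.63 (edgeR adjusted p = 6.90e-05), at 3.29 to 7.14 CPM in basal cells. It had at most 0.86 CPM in LP and 0.196 CPM in ML, so this size rests on few luminal counts. *Aldh3b1* (r = 0.992), *Fxyd2* and *Tmem56*, all ML signature genes, were most like *Foxa1*.

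*Tbx3*, a T-box repressor needed for mammary bud formation, separated ML from LP but not luminal from basal cells. It measured 23.7, 20.2 and 19.5 CPM in ML, 4.23, 7.20 and 5.51 in basal cells and, in LP, 0.860, 0.559 and 0 CPM, the last from 0 counts, which allows up to 1.07 CPM (3 counts; the exact 95% interval reaches 1.32). In every library the order was ML, basal, LP, without overlap. The log2 difference was 5.10 ± 0.42 between ML and LP (edgeR adjusted p = 8.35e-08) and 3.26 ± 0.49 between basal cells and LP (edgeR adjusted p = 5.38e-05). The mean of LP and ML therefore did not differ detectably from basal cells (-0.71 ± 0.34, edgeR adjusted p = 0.0918), whereas ML alone exceeded them by 1.84 ± 0.26 (edgeR adjusted p = 2.20e-05). *Tbx2* was basal, at 5.71 to 6.58 CPM there, and fell by 5.04 ± 0.60 on the log2 scale in luminal cells (edgeR adjusted p = 3.52e-06). It had at most 0.862 CPM in LP and ML, so this size rests on few luminal counts. *Fgfr2* (r = 0.988), *Id3* and *Enho* were most like *Tbx3*, and of these *Fgfr2* was an ML signature gene.

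*Spdef*, an ETS factor of secretory and hormone-responsive epithelia, was the least abundant regulator. It had 52, 52 and 51 counts in the whole puberty, estrus and diestrus libraries. ML had 4.11, 11.2 and 12.1 CPM, LP 0.860, 0 and 0.714 CPM and basal cells 0.497, 0 and 0.204 CPM. The 0 counts in estrus allow up to 1.68 CPM in LP and 0.617 CPM in basal cells (3 counts; the exact 95% intervals reach 2.06 and 0.758). ML exceeded LP by a log2 difference of 3.40 ± 0.59 (edgeR adjusted p = 0.000232). In counts summed over the libraries, 131 in ML against 3 in basal cells, the ratio was 33.6 with a 95% interval of 11.3 to 165. The difference of luminal from basal cells (3.40 ± 0.82, edgeR adjusted p = 0.00252) missed the threshold when any 1 library was left out, with adjusted p of 0.0126 without puberty, 0.0169 without estrus and 0.0331 without diestrus. *Arg2* (r = 0.96), *Elf1* and *Sult2b1* were most like *Spdef*, and of these *Arg2* and *Sult2b1* were ML signature genes.

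Against basal cells, 8 of the 10 regulators were higher in luminal cells, *Tfap2c* was lower by 2.61 ± 0.15 on the log2 scale (edgeR adjusted p = 1.01e-09), and *Tbx3* was not called. Over all 11144 genes, 19.9% were higher and 22.7% lower in luminal cells. The median log2 difference was 2.78 over the regulators and -0.02 over all genes. LP taken alone had 5 regulators higher and 2 lower than basal cells, where 17.6% of all genes were higher and 17.9% lower. *Tbx3* and *Tfap2c* were the lower ones, and *Foxa1*, *Spdef* and *Cited1* were not called, with log2 differences of 1.57 ± 0.56, 1.705 ± 1.06 and 0.53 ± 0.24 (edgeR adjusted p = 0.0316, 0.209 and 0.0877). In ML alone, 9 were called higher (8, without *Elf5*, under the alternatives named above), where 21.2% of all genes were, and *Tfap2c* was called lower, as were 24.1% of all genes, by 4.23 ± 0.21 (edgeR adjusted p = 1.40e-10).

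**Figure D2:**
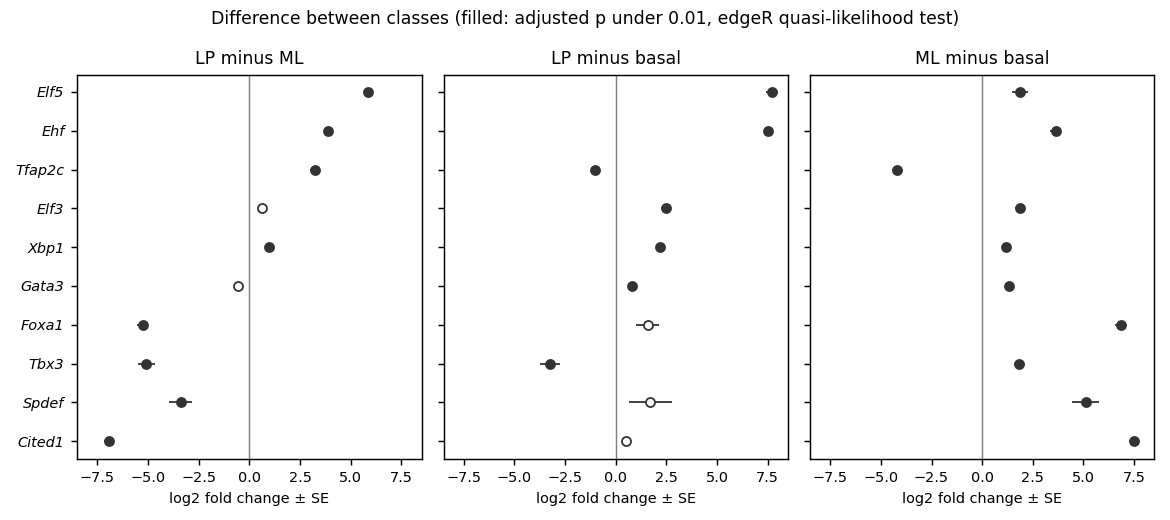
Log2 differences (horizontal axes, ± SE) between LP and ML, LP and basal, and ML and basal cells for each regulator, from the fit of 12 class sums; filled points passed an edgeR adjusted p of 0.01. *Elf5* to *Tfap2c* lie on the LP side and *Foxa1* to *Cited1* on the ML side of the first panel, and *Tfap2c* is the only point left of 0 in the ML against basal panel.

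The Lum Int class held both LP and ML regulators in its summed counts. The class is a range of positions between LP and ML, so levels between theirs describe where the range was cut. Within 0.05 of a border lay 53 of 227 pubertal cells, 32 of 111 estrus cells and 23 of 92 diestrus cells. Its cells had more UMIs than those of LP and ML, with medians of 6235, 5860 and 7084, and Scrublet called 24.2% of them doublets in puberty and none in the adult libraries. The part of droplets with more than 1 cell in the values of this class was not tested beyond leaving out the called doublets. That changed none of the calls for the 10 regulators.

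Compared with LP, *Cited1* was higher in Lum Int by 5.84 ± 0.24 on the log2 scale (edgeR adjusted p = 2.14e-10), *Tbx3* by 4.68 ± 0.51 (edgeR adjusted p = 1.36e-05) and *Foxa1* by 4.58 ± 0.32 (edgeR adjusted p = 7.12e-08). *Elf5*, *Tfap2c*, *Ehf* and *Xbp1* were lower, by 1.28 ± 0.21, 1.14 ± 0.22, 0.88 ± 0.15 and 0.60 ± 0.13 (edgeR adjusted p from 0.000663 to 0.00415). These are 3 calls higher and 4 lower, where 5.01% of all genes were called higher and 3.26% lower. Without TMM scaling 648 genes were called higher and 216 lower, against 558 and 363. Compared with ML, *Elf5*, *Ehf* and *Tfap2c* were higher by 4.57 ± 0.26, 3.02 ± 0.17 and 2.08 ± 0.26 (edgeR adjusted p of at most 4.58e-05) and *Cited1* was lower by 1.11 ± 0.19 (edgeR adjusted p = 0.000813), where 5.49% of all genes were called higher and 1.4% lower. In Lum Int, *Elf5* measured 126, 215 and 145 CPM and *Cited1* 1379, 1975 and 1140 CPM in puberty, estrus and diestrus. The 3 lower calls for *Ehf*, *Tfap2c* and *Xbp1* against LP depended on single libraries. *Ehf* missed the threshold without estrus (edgeR adjusted p = 0.0245), *Tfap2c* without diestrus (0.0244) and *Xbp1* without puberty (0.0465), without estrus (0.0253) or without TMM scaling (0.0280). Without the library block, all 4 lower calls against LP and that of *Cited1* against ML were lost, with edgeR adjusted p of 0.0352 for *Elf5*, 0.0179 for *Ehf*, 0.0399 for *Tfap2c*, 0.323 for *Xbp1* and 0.154 for *Cited1*.

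Along the LP to ML position, divided into 6 equal bins, the regulators differed in where their levels changed, which is given without a test. *Cited1* was higher in each bin of at least 20 cells than in the one before it, from 20.3, 32.6 and 12.9 CPM (without TMM scaling) in bin 1 to 3113, 5598 and 2594 CPM in bin 6. In bin 3 it stood at 26.8%, 26.9% and 38.4% of its level in bin 6. *Tbx3* in the same bin stood at 79.3%, 77.1% and 60.1%, from 8, 5 and 3 counts. *Foxa1* in bin 3 had 85.7% of its bin 6 level in puberty, from 20 counts, and 32.2% and 27.5% in estrus and diestrus, from 8 and 4 counts. *Elf5* in bin 3 kept 51.7%, 67.2% and 46.5% of its bin 1 level, and *Ehf* 95.7%, 85.0% and 51.7%. In bin 5, next to ML, *Elf5* still measured 64.0, 67.5 and 61.7 CPM, compared with 4.72, 1.13 and 2.17 CPM in bin 6. Bin 2 held 10 cells in estrus and 18 in diestrus, too few for a level. *Gata3* was between 84.9 and 120.5 CPM in all 6 bins in puberty.

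**Figure D3:**
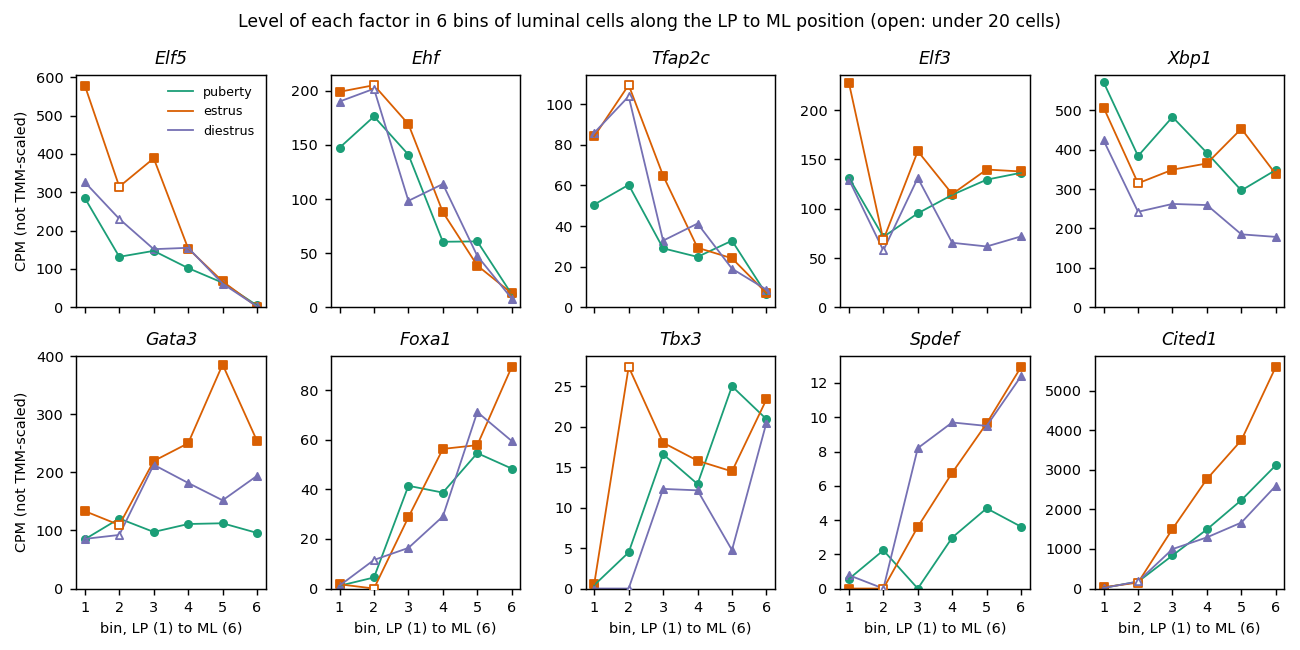
CPM without TMM scaling (vertical axes) of each regulator in 6 bins of luminal cells ordered from LP (bin 1) to ML (bin 6), with 1 line per library and open points for bins under 20 cells. *Elf5*, *Ehf* and *Tfap2c* are lowest in bin 6, where *Cited1* is highest.

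The share of cells with both *Elf5* and *Cited1* was highest in Lum Int. At 2000 UMIs per cell, a count of both was found in 26 of 221 pubertal Lum Int cells (11.8%, exact 95% interval 7.83 to 16.8%). In estrus 28 of 108 cells had both (25.9%, 18.0 to 35.2%) and in diestrus 21 of 89 (23.6%, 15.2 to 33.8%). The shares were 1.502%, 2.06% and 0.805% in LP and 0.933%, 0.556% and 0.809% in ML, and no basal cell of 866, 949 and 856 had both. In each library the Lum Int interval lay above those of LP and ML. Since Lum Int is a small class, the pubertal LP and ML classes held 24 and 19 cells with both, together more than Lum Int. The share with both was close to the product of the single shares in Lum Int, 12.7%, 25.3% and 22.3%. Without thinning the mean over libraries was 50.1%. *Elf5* and *Foxa1* were found together in 3, 1 and 1 Lum Int cells. In LP, 8.39%, 21.1% and 15.5% of cells had both *Elf5* and *Ehf*, against products of 7.43%, 18.5% and 13.3%. In ML, 7.36%, 15.4% and 9.87% had both *Foxa1* and *Cited1*, against products of 7.08%, 15.5% and 9.14%.

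**Figure D4:**
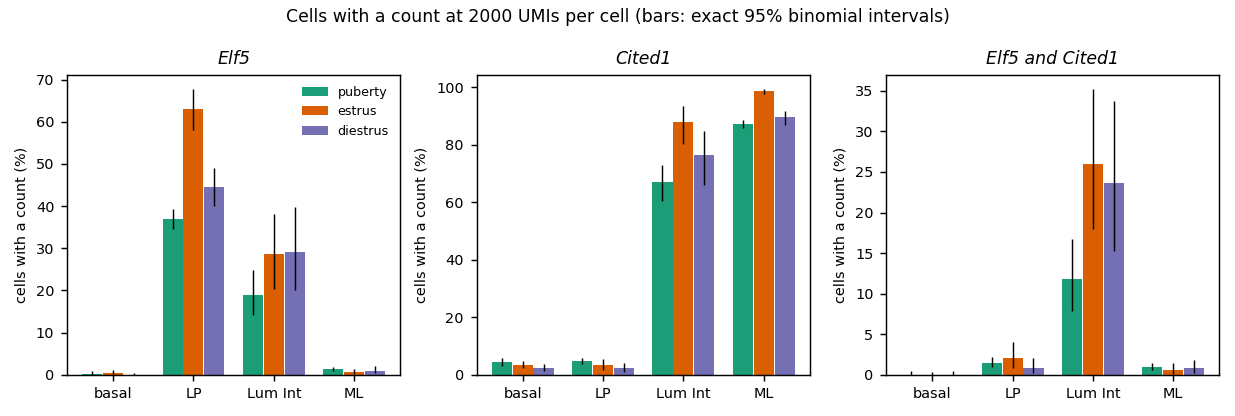
Percent of cells (vertical axes) with a count of *Elf5*, of *Cited1* or of both in basal, LP, Lum Int and ML cells thinned to 2000 UMIs, by library; bars are exact 95% binomial intervals. The share with both is 11.8 to 25.9% in Lum Int and at most 2.06% in the other classes.

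Between the adult stages, most regulators were lower in diestrus than in estrus. Among the 20 pairs of a regulator and a class that reached 50 CPM, 18 had a ratio below 0 on the log2 scale (TMM-normalized CPM with a pseudocount of 1 CPM). Counting intervals did not overlap for 2 of 3 pairs in basal cells, 4 of 6 in LP, 2 of 6 in Lum Int and 5 of 5 in ML, while the same held for 62.7%, 50.1%, 26.1% and 46.8% of all genes at this level. None of these 20 pairs reached 2-fold, whereas 12.1% of all genes at this level did in basal cells, 12.9% in LP, 11.5% in Lum Int and 7.64% in ML. Under 50 CPM, *Cited1* in LP was lower in diestrus by 1.355 (33.5 CPM in estrus and 12.5 in diestrus). *Elf3* in basal cells was lower by 1.006 (48.5 and 23.7 CPM), and in neither pair did the counting intervals overlap. *Cited1* was lower in diestrus by 0.97 in ML and 0.79 in Lum Int, *Elf5* by 0.89 in LP and 0.57 in Lum Int, *Elf3* by 0.87 in LP and 0.79 in ML, and *Xbp1* by 0.80 in ML. *Gata3* was lower in all 4 classes, by 0.67 in LP, 0.31 in basal cells, 0.30 in ML and 0.18 in Lum Int. *Ehf* in LP was lower by 0.12, with overlapping intervals and a sign that changed over the alternatives. Medians over all genes were between -0.02 and 0.07, and without TMM scaling they moved by up to 0.15. Relative to the median of the class, 16 of the 18 stayed below it in every alternative. The exceptions were *Ehf* and *Tfap2c* in LP. With 1 pool of mice per phase, phase and library cannot be told apart. Cycling cells, called by at least 3 of 10 cell cycle genes, were 4.47% of LP in estrus and 15.2% in diestrus, and leaving them out is among the alternatives below.

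Puberty was compared with the same adult libraries, averaged on the log2 scale, so both comparisons share samples. A 2-fold ratio was reached by 5.68% of all genes at this level in basal cells, 6.61% in LP, 6.88% in Lum Int and 5.79% in ML. Pairs were then counted if the interval of puberty lay above those of both adult libraries or below both. Those with puberty between the adult libraries were not counted. This held for 2 of 3 pairs in basal cells, 1 of 6 in LP, 2 of 6 in Lum Int and 3 of 5 in ML. The same rule held for 28%, 27.7%, 13.4% and 31.9% of all genes. *Tfap2c* in basal cells was the single pair that passed 2-fold, lower in puberty by 1.04, where 2.16% of genes at this level were lower to that extent. *Gata3* was lower in puberty by 0.95 in ML and 0.74 in Lum Int, and by 0.23 in basal cells, while in LP the ratio was 0.10, with a sign that changed over the alternatives. *Xbp1* was higher in puberty in all 4 classes, by 0.70 in basal cells and LP, 0.68 in Lum Int and 0.73 in ML. *Elf3* was higher in ML by 0.71. *Spdef* in ML, under 50 CPM, was lower by 1.30, with 42 counts in puberty, 47 in estrus and 42 in diestrus. The median of all genes was 0.09 in basal cells, 0.21 in LP, 0.13 in Lum Int and 0.14 in ML. Without TMM scaling it moved by -0.12, -0.39, -0.25 and -0.25. Relative to the median, *Tfap2c* in basal cells lay 1.13 to 1.26 lower, *Gata3* in ML 1.10 to 1.12 lower and *Xbp1* 0.41 to 0.63 higher over the classes and scalings. After thinning, *Tfap2c* was found in 15.0% of pubertal basal cells (exact 95% interval 12.7 to 17.6%), against 35.5% (32.5 to 38.6%) in the estrus library and 29.9% (26.9 to 33.1%) in that of diestrus.

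**Figure D5:**
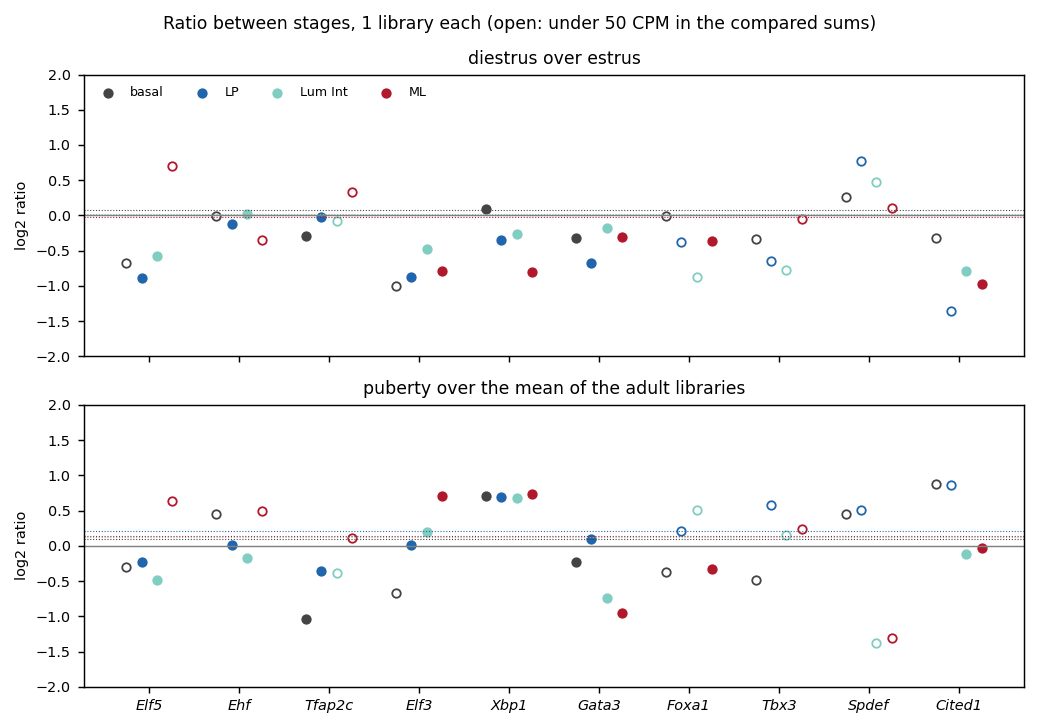
Log2 ratios (vertical axes) of diestrus to estrus and of puberty to both adult libraries (their mean) for each regulator in basal, LP, Lum Int and ML cells; open points were under 50 CPM and dotted lines are medians over all genes of the class. No filled point lies beyond 1 or -1 except *Tfap2c* in basal cells at -1.04.

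The other members of the regulators' families, and further regulators, were taken from lists chosen with earlier results of these data known. Of 19 other ETS factors, 14 were tested, and 2 were higher in LP and 3 in ML, where 16.6% and 14.6% of all genes were. *Ets2* was higher in LP by 1.20 ± 0.11 (edgeR adjusted p = 3.40e-07) and *Etv6* by 0.86 ± 0.18 (0.00114), while *Etv4* and *Elf1* were higher in ML, as was *Elk1*, named after its values were seen. Against basal cells 7 were lower, led by *Etv4* at -3.65 ± 0.21 (edgeR adjusted p = 7.49e-10), *Etv5* at -3.19 ± 0.23 (1.59e-08) and *Elk3* at -2.40 ± 0.29 (3.78e-06), and *Ets2* was higher, by 1.15 ± 0.10 (1.19e-07). The median of this list against basal cells was -0.58. Of all genes, 22.7% were lower and 19.9% higher in luminal than in basal cells. Of the 17 members of the FOXA, GATA, T-box, AP-2 and CITED families, 6 were tested, the 6 paralogs other than *Gata2* given above.

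Of 24 further luminal regulators 22 were tested, with 8 higher in LP and 5 in ML, where 16.6% and 14.6% of all genes were. The Notch effector *Hey1* was higher in LP by 6.17 ± 0.21 (edgeR adjusted p = 6.10e-12), *Foxi1* by 6.48 ± 0.34 (4.36e-10), *Sox10* by 5.32 ± 0.27 (3.36e-10) and *Cebpb* by 3.36 ± 0.21 (3.25e-09). The 5 higher in ML, named after their values were seen, were *Msx2*, *Pgr*, *Myb*, *Esr1* and *Sox9*. *Esr1*, the estrogen receptor, had 27.9, 24.9 and 22.1 CPM in ML of puberty, estrus and diestrus and 5.33, 2.79 and 3.57 CPM in LP. Against basal cells, 11 were higher and 6 lower, where 19.9% and 22.7% of all genes were. *Grhl1*, *Hes1* and *Sox9* were higher in luminal cells by 3.08 ± 0.28, 1.36 ± 0.13 and 1.45 ± 0.14 (edgeR adjusted p of at most 4.78e-07), and *Lmo4* was lower by 1.79 ± 0.13 (edgeR adjusted p = 1.83e-08).

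Of 18 listed genes of the unfolded protein response 17 were tested, with 3 higher in LP and 2 in ML and a median of -0.06, shares close to the 16.6% and 14.6% of all genes. *Hspa5*, the chaperone BiP, was higher in LP than in ML by 0.92 ± 0.14 (edgeR adjusted p = 8.14e-05), *Dnajb9* by 1.01 ± 0.20 (0.000686) and *Ddit3* by 1.40 ± 0.20 (4.12e-05), whereas *Sec61b* was lower by 0.69 ± 0.10 (2.92e-05). Against basal cells, where *Xbp1* was higher in luminal cells by 1.69 ± 0.11 (edgeR adjusted p = 6.18e-09), *Hspa5* was lower by 0.67 ± 0.12 (0.000192), *Dnajb9* was lower by 1.17 ± 0.16 (1.37e-05) and *Dnajc3* was higher by 0.65 ± 0.14 (0.000822). The other 14 were not called. Of all genes, 19.9% were called higher and 22.7% lower in luminal than in basal cells. 3′ counts do not tell the spliced form of *Xbp1*, which encodes the active factor, from the unspliced one.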

How the data were processed

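Droplet single-cell libraries of CD24+ mammary epithelium were compared. The authors deposited UMI counts per gene and barcode, without normalization, made with Cell Ranger 2.0 against mm10 per the submitters' processing notes. Members and lists were chosen with earlier results of these data known. Seed cells exceeded both other lineages by 1 z unit over 8 markers, and signatures held 100 genes at least 2-fold higher in every library and detected in 10% of seeds. Borders lay at 1/3 and 2/3 of the distance between seed medians. Class sums were tested with edgeR 4.0.16 (TMM, filterByExpr, glmQLFTest) and 6 residual degrees of freedom. DESeq2 1.42.0 was an alternative. SE was derived from the quasi-likelihood F statistic. Stage ratios used a pseudocount of 1 CPM. Summed counts have exact Poisson and shares exact binomial 95% intervals, and floors are 3 counts, all for counting error only. Scrublet called 2.56%, 1.03% and 0.492% of puberty, estrus and diestrus cells doublets, which were kept. The fit was checked on simulated counts. Besides the 10 regulators, the text names paralogs, up to 4 genes per list and contrast with the smallest adjusted p, and the 3 genes most correlated with each regulator. Genes outside this rule are marked as named after their values were seen. The second puberty table entered only as an alternative.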

Additional observations from a re-analysis of the deposited data

Results flagged for a closer look

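For *Gata3*, the sign of the difference between luminal classes was not the same in puberty as in the adult libraries, with pubertal values close to 0. The log2 difference of LP from ML was 0.067 in puberty, -0.799 in estrus and -1.17 in diestrus. The pubertal counting intervals of LP and ML overlapped, and without TMM scaling the pubertal value was -0.15, of the same sign as the adult ones. Between Lum Int and ML the difference was 0.0841 in puberty, -0.196 in estrus and -0.0694 in diestrus, and 0.14, -0.15 and -0.0039 without TMM scaling. The difference between stages was not tested, since each stage had 1 library.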

How the results depend on the processing

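The directions of all called differences held under every alternative. Uncalled differences of *Elf3* and *Gata3* between Lum Int and ML changed sign. For *Elf3* (0.04) it was -0.0403 without TMM scaling, -0.0962 with no filter, -0.0425 with the second puberty table, -0.00205 without cycling cells, -0.00325 in cells with 1000 genes and under 10% mitochondrial counts and -0.189 to 0.242 with a library left out. For *Gata3* (0.06) it was -0.0213 without TMM scaling, -0.0766 with no filter, -0.03945 without cycling cells and -0.0178 to 0.117 with a library left out. Against LP, the 7 regulators called in Lum Int became 3 with no replicate block (0 of them lower). The pairing of classes by library is given by the design, since all 4 classes of a stage came from 1 library. The 3 called higher became 5 at a threshold of 0.05 and 5 with no filter, and the 4 called lower ranged from 2 to 3 when 1 library was left out, with 2 without estrus. Against ML, the 1 called lower in Lum Int became 2 at a threshold of 0.05, 2 with no filter and 0 with no replicate block. The block changed no other call except those of *Xbp1* between LP and ML (adjusted p = 0.0366 without it), *Spdef* between luminal and basal cells (0.0105) and *Gata3* between LP and basal cells (0.0712). Among pairs that reached 50 CPM, diestrus to estrus ratios past 2-fold rose from 0 to 2 without TMM scaling, 1 as a mean over cells and 2 without cycling cells. For puberty the 1 ratio became 2 without TMM scaling, 3 as a mean over cells, 2 without cycling cells, 2 in cells with 1000 genes and under 10% mitochondrial counts, 2 with the sum of both puberty tables and 2 with the second alone. The share of Lum Int cells with *Elf5* and *Cited1*, 20.4% ± 7.60 (SD, n = 3 libraries), was 50.1% without thinning and 11.96% at 1000 UMIs. Genes called higher and lower, 1849 and 1627 in LP against ML, were 1104 and 826 with no replicate block, and 2213 and 2534 in luminal against basal cells were 1335 and 1736. For Lum Int against LP, 558 and 363 became 924 and 853 at 0.05, 697 and 875 with no filter, 648 and 216 without TMM scaling, 229 and 17 with no replicate block, and 297 to 332 and 106 to 240 with a library left out. Against ML, 612 and 156 became 906 and 432, 732 and 686, 563 and 185, 336 and 9, and 391 to 426 and 40 to 124. The cause of these changes was not tested. Levels of *Spdef*, *Tbx3*, *Foxa1*, *Ehf* and *Elf5* in some classes rest on fewer than 20 counts, which limits their precision.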
